A study of Mus musculus with 92 samples.

Results

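Single blastomeres of 8-cell mouse embryos were compared between embryos that had received either of 2 let-7 microRNAs as zygotes and embryos that had not. The let-7 side joined the groups Let7d and Let7e. The other side joined the negative control (NC) and a group injected with a further microRNA that the labels call mi699a-5p. The groups of a side were pooled, so a difference against NC alone or against mi699a-5p alone can also give a small p. All embryos were wild-type C57BL/6N, and no group was left uninjected. Cells were sampled at the 8-cell stage, and the labels give no dose. Cells sharing a mouse id had their raw Smart-seq2 read counts added up, which gave 3 Let7d values from 18 cells, 4 Let7e values from 20, 3 NC values from 22 and 4 mi699a-5p values from 21. The contrast therefore set 7 mouse ids (38 cells) against 7 (43 cells) and used all 14 of the series, with 7886 genes in the table. What a mouse id stands for is not labelled. In 3 of them, cells with Xist but no Y-linked signal and cells with the reverse occurred together, 4 and 4 in NC mouse id 2, 4 and 1 in Let7e mouse id 1, and 3 and 1 in mi699a-5p mouse id 4 (each at a minimum of 5 CPM), which cells of 1 embryo would not give. Each group has its own mouse ids, so p-values measure the spread between mouse ids and any handling that coincided with a group cannot be told apart from what was injected.

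MicroRNAs of the let-7 family are loaded into Argonaute proteins and guide them to messenger RNAs, mostly through base pairing of the seed, bases 2 to 8 from the 5′ end, with sites in the 3′ untranslated region (UTR). Binding recruits deadenylases and lowers the stability or translation of the target. The family is best known for promoting differentiation by holding down Lin28, Hmga2 and Trim71, and its members are scarce in early embryos and pluripotent cells, where Lin28 proteins block their maturation.

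The mature 5p sequences of the 2 microRNAs are shown to compare their seeds. The labels give neither the arm nor the sequence that was injected. The sequences are taken from RefSeq on GRCm38.p6, with the seed in capitals. Mirlet7d lies on chromosome 13 (48536078 to 48536099 for the mature arm, minus strand) and Mirlet7e on chromosome 17 (17830366 to 17830387, plus strand).
mmu-let-7d-5p: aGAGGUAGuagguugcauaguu
mmu-let-7e-5p: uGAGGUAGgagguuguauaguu
The 2 molecules have 22 bases each and share the seed GAGGUAG. They differ at 3 positions, A1U, U9G and C16U, counted from the 5′ end with the let-7d base first, and none of these lies in the seed.

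The sites below are shown because they are full 8mer matches to that seed in the 3′ UTRs of genes long used as let-7 readouts, Hmga2, Lin28a and Trim71. For Trim71 the first 2 of 4 along the UTR are given. Each is 30 bases on the transcript strand (GRCm38, GENCODE M21), with the letters CTACCTCA in capitals.
Hmga2, chr10:120364216-120364245, minus strand: ccgacattcaatttCTACCTCAgcatcagt
Lin28a, chr4:134005181-134005210, minus strand: cacagcctgttgaaCTACCTCAtttttgcc
Lin28a, chr4:134004543-134004572, minus strand: agatcgccacaaacCTACCTCActgtgttg
Trim71, chr9:114512464-114512493, minus strand: acattgcctaagtcCTACCTCAgcttaaat
Trim71, chr9:114512368-114512397, minus strand: gtgataatttctatCTACCTCAactctttg

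Summed libraries held 6329464 to 24037593 reads. Sequencing depth, as reads per cell over the genes in the table, separated the sides completely. Let-7 mouse ids had 2916582, 3004699 and 4071285 reads per cell (lowest, median, highest) and the others 1936975, 2300504 and 2732434. The means were 3171700 and 2349232 reads per cell (exact permutation p = 0.000583, two-sided, the smallest that 3432 arrangements give, and adjusted p = 0.00466 over 8 library measures). These values count 2 near-identical columns of Let7d mouse id 2 as 1 cell with their reads added. Averaged per column, Let7d mouse id 2 would lie below the highest other value, and the separation would not be complete. Detected genes averaged 6919 ± 104 per cell (SD, n = 7) on the let-7 side and 6986 ± 255 on the other, and ribosomal RNA genes took 7.52% ± 3.37 against 11.2% ± 2.89 of reads, neither past the test (exact permutation, adjusted p = 0.654 and 0.203). Without Let7e mouse id 1, which had the highest ribosomal share of its side (14.01%), the ribosomal difference passed (exact permutation, adjusted p = 0.028). Of the 14 single omissions this one gave the widest difference (-4.78 points), so its smaller p is no independent support. Xist and Y-linked transcripts, which mark the sex of a blastomere, did not separate the sides (exact permutation, adjusted p = 0.654 and 0.847), and the 232 X-linked genes had a median log2 fold change of 0.03. Levels below are counts scaled to a common library total (CPM), but depth coincides with the contrast, and whatever else came with it cannot be told apart from what was injected. With every cell thinned to 1575609 reads, 381 genes had an unadjusted p under 0.05, and with summed libraries thinned to a common total 366, beside 360 without thinning. Let7e mouse id 3 stood apart on the first principal component (139.7, with 25.8% of the variance). It holds 2 cells. Of 59 genes named below or in the closing observations at an unadjusted p under 0.05, 11 were at or above 0.05 without it: Osbpl11, Hmga2, Nras, Cnot3, mt-Co1, Uqcrh, Txn1, Prdx2, Kpnb1, Tepsin and Gaa.

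**Figure D1:**
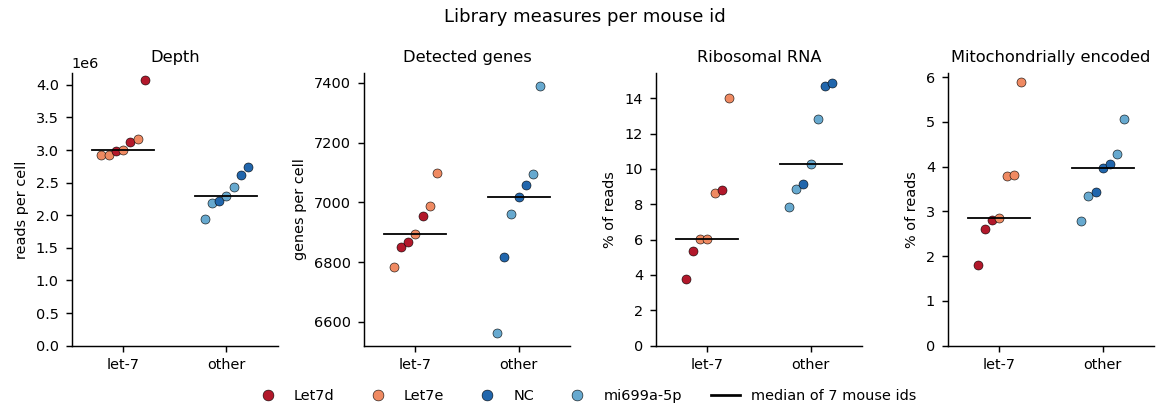
Reads per cell, detected genes per cell (axis does not start at 0), and percent of reads from ribosomal RNA and from 7 mitochondrially encoded genes, 1 point per mouse id coloured by injected group, with the median of each side as a bar. Depth is the panel in which the sides do not overlap, with the near-identical columns of Let7d mouse id 2 counted as 1 cell. Every let-7 mouse id is at or above 2916582 reads per cell and every other one at or below 2732434.

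Blastomere identity was checked on marker genes. Of the pluripotency and inner cell mass list 19 of 22 genes were measured, of the trophectoderm list 13 of 21. Of 16 cumulus and granulosa markers 0 were in the table, and the sperm and the blood, skin and stromal lists had 1 measured gene each, Odf2 and Pecam1. Their summed levels overlapped between the sides (5.02 to 39.6 CPM against 25.3 to 44.4 for Odf2, and 40.4 to 153 against 26.6 to 321 for Pecam1). The table holds a filtered set of genes, so markers outside it were not analysed here.

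No gene passed the test in either direction. By edgeR's quasi-likelihood test with Benjamini-Hochberg adjustment at 0.05, 0 of 7886 genes (0%) were called, and the lowest adjusted p was 0.9994. An unadjusted p under 0.05 was reached by 174 genes with a higher let-7 mean (2.21% of the table) and 186 with a lower one (2.36%), together 360 or 4.57%. DESeq2 also called 0 genes (426 at an unadjusted p under 0.05, lowest adjusted p = 0.159), and limma-voom called 0 (463, lowest adjusted p = 0.80). The median log2 fold change of let-7 over other was -0.0046, and the central 90% of genes lay between -0.65 and 0.55. How small a change the contrast could bound is given by the 95% interval of each fold change, which had a median reach of ± 0.63 on the log2 scale, or ± 0.39 for the 2084 genes with a mean of at least 100 CPM. For 4747 genes (60.2%) the whole interval lay within ± 1.

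Few genes separated the sides in all mouse ids. The lowest let-7 value was above the highest other value for 4 genes (0.0507% of the table), Cops6, Tecpr2, Snap91 and Dhps, and the reverse held for 3 (0.038%), Casp6, Slc25a26 and Osbpl11. In 1184 genes (15%) the means of both let-7 groups exceeded both other means, and in 1245 (15.8%) they lay below both. Among the 174 and 186 genes at an unadjusted p under 0.05, this ordering of all 4 group means held for 166 and 171. A small p in the pooled contrast and this ordering come from the same values, so these counts are no independent support.

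Cops6, a subunit of the COP9 signalosome that trims the modifier Nedd8 from cullin ubiquitin ligases, was the most abundant gene without overlap (chromosome 5, 138161071 to 138164646). Let-7 mouse ids had 294, 365 and 417 CPM (lowest, median, highest) and the others 232, 238 and 287. The log2 fold change was 0.49 ± 0.13 (SE, edgeR, unadjusted p = 0.00112, adjusted p = 0.9994). All 7 let-7 values thus lay above all others, with a gap much narrower than the range on either side.

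Casp6, an effector caspase, was its counterpart with lower let-7 values. It had 36.2, 49.3 and 60.1 CPM on the let-7 side against 62.3, 78.3 and 99.4, a log2 fold change of -0.69 ± 0.19 (edgeR, unadjusted p = 0.00173). Let7d and Let7e averaged 48.8 and 49.1 CPM, and NC and mi699a-5p 84.4 and 75.1, so the groups of each side lay closer to one another than to the other side. With every cell thinned to the same reads, the log2 fold change was -0.66 for Casp6 and 0.52 for Cops6.

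The remaining genes without overlap were less abundant or closer together. Dhps, which makes the deoxyhypusine of translation factor eIF5A, had 59.7 to 90.3 CPM against 39.4 to 59.2. Osbpl11, an oxysterol-binding protein relative, had 30.5 to 58.7 CPM against 59.6 to 83.7. These neighbouring ends differ by about 1 CPM in each case. The other 3 were named because they separate the sides, after their values were seen, and lay under a mean of 20 CPM: Tecpr2, an autophagy protein, at 14.2 to 35.8 against 4.97 to 13.5 CPM, Snap91, a clathrin assembly protein, at 15.6 to 28.6 against 2.11 to 14.6, and Slc25a26, the mitochondrial carrier of S-adenosylmethionine, at 1.93 to 19.6 against 20.7 to 31.3.

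Genes with the smallest p and higher let-7 means were led by Ankrd17, an ankyrin repeat and KH domain protein. It had 217, 254 and 322 CPM on the let-7 side and 135, 144 and 219 on the other. One NC mouse id, at 219 CPM, reached into the let-7 range, and 6 of 7 let-7 values lay above it. The log2 fold change was 0.69 ± 0.16 (edgeR, unadjusted p = 0.000348, adjusted p = 0.9994), between 0.53 and 0.83 over all alternative settings.

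Dppa2, a chromatin-associated pluripotency factor active around genome activation, followed, with 497, 565 and 627 CPM against 310, 385 and 529. One mi699a-5p mouse id overlapped 2 of the let-7 values. Its log2 fold change was 0.55 ± 0.14 (edgeR, unadjusted p = 0.000603), and the group means were 571 CPM in Let7d and 564 in Let7e against 381 in NC and 393 in mi699a-5p. Dppa2 was the single member of the 19 measured pluripotency genes at an unadjusted p under 0.05, beside 4.57% over all genes, and the list as a whole had a median log2 fold change of -0.02, with 8 members above 0. Sall4, which carries an 8mer seed match, had 300 to 500 CPM against 332 to 564.

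Among the next genes of this ranking, the zinc transporter Slc39a1 had 533.7, 828.6 and 1110 CPM against 407, 559 and 612, with 6 of 7 let-7 values above all others. The riboflavin transporter Slc52a2 was much lower in level, at 13.0, 36.9 and 48.7 CPM against 3.41, 6.37 and 15.8, and had the widest change among these genes, a log2 fold change of 1.75 ± 0.44 (edgeR, unadjusted p = 0.000752). Sf3a1, a core factor of the U2 splicing particle, had a log2 fold change of 0.63 ± 0.18, and Wbp11, a splicing-associated protein, one of 0.56 ± 0.17.

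Eif1, which keeps the scanning ribosome faithful to the start codon, had 255 to 406 CPM against 164 to 282, and Tnpo2, a transportin that imports RNA-binding proteins into the nucleus, 106 to 214 against 56.5 to 113. Ppt2, a lysosomal thioesterase, had 103 to 242 CPM against 68.5 to 148 although its 3′ UTR holds an 8mer match. Uaca, a regulator of the apoptosome, had 12.2 to 50.01 CPM against 6.42 to 19.8, and BC051019 27.1 to 111 against 14.02 to 45.4. In each of these 5 genes at least 5 of 7 let-7 values lay above every other value, yet the ranges overlapped.

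Genes with the smallest p and lower let-7 means included Stard4, Msmo1 and Crot. Stard4, which carries cholesterol between membranes, had 13.5, 18.0 and 41.5 CPM on the let-7 side against 14.2, 50.4 and 101, with a log2 fold change of -1.23 ± 0.36 (edgeR, unadjusted p = 0.00263). Msmo1, a sterol C4 demethylation enzyme, had 19.4, 56.5 and 80.4 CPM against 70.7, 87.9 and 124 (log2 fold change -0.93 ± 0.28). Crot, which moves medium-chain acyl groups out of peroxisomes, had 10.1, 13.9 and 30.7 CPM against 26.4, 35.8 and 48.2 (log2 fold change -1.01 ± 0.30). All 7 let-7 values of each were below the median of the other side, and the sides overlapped in all 3.

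The lower ranking was headed by p by Cthrc1, a secreted collagen-related protein, at 8.40, 17.8 and 30.1 CPM against 21.8, 33.4 and 78.4 (log2 fold change -1.36 ± 0.37). Akap10, an anchor of protein kinase A, had 4.103 to 12.8 CPM against 10.6 to 81.6. Its top value came from mi699a-5p mouse id 2, without which the log2 fold change of -1.63 ± 0.46 became -1.01. Scyl2, a clathrin-associated pseudokinase, likewise had 8.36 to 29.97 CPM against 21.2 to 94.6, and its log2 fold change of -1.18 ± 0.37 became -0.81 without mi699a-5p mouse id 3.

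Chchd3, a subunit of the mitochondrial cristae junction complex, had 16.6 to 46.2 CPM against 33.2 to 71.5, with a 7mer-m8 match in its 3′ UTR. C1d, a cofactor of the nuclear RNA exosome, had 83.1 to 134 CPM against 110 to 269, and Cystm1, a small membrane protein, 42.7 to 74.5 against 66.7 to 98.0. The uncharacterised loci 4930522L14Rik and 8030462N17Rik had log2 fold changes of -1.04 ± 0.31 and -0.70 ± 0.21. In these 5 genes all let-7 values lay below the other side's median, with overlap at the ends.

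**Figure D2:**
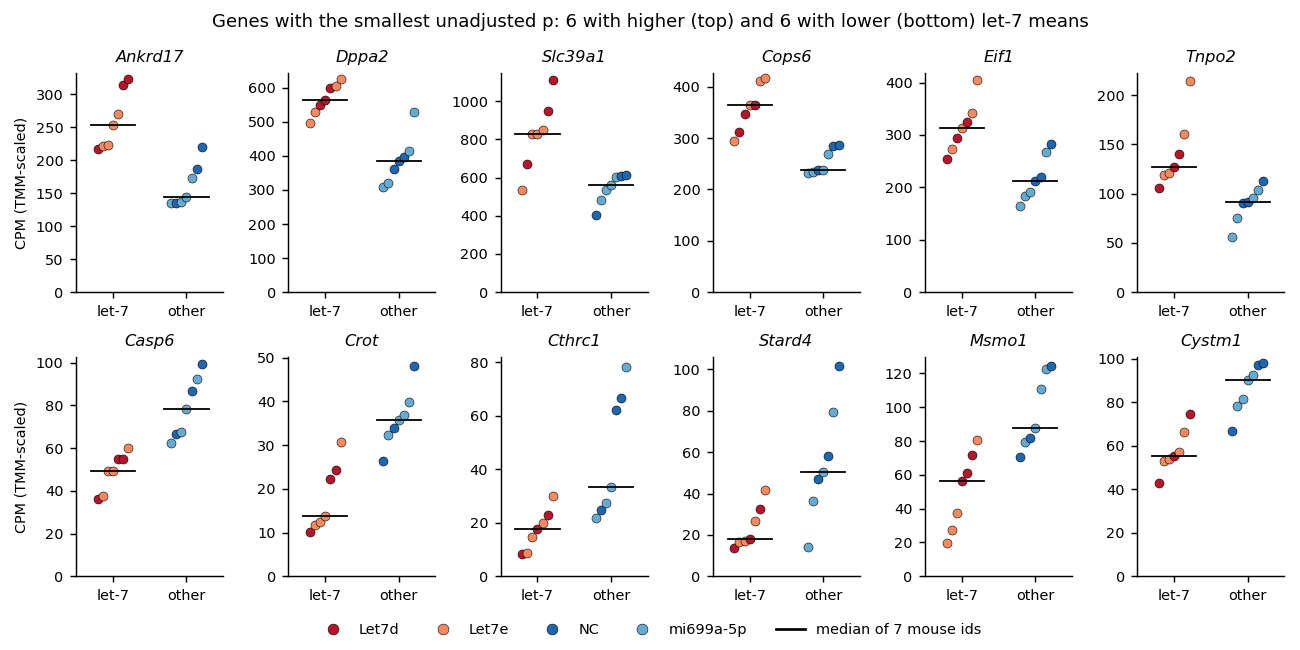
CPM per mouse id (linear axes from 0, TMM-scaled) for 6 genes with higher and 6 with lower let-7 means among those with the smallest unadjusted p, coloured by injected group, with the median of each side as a bar. Cops6 and Casp6 show no overlap, at 294 against 287 CPM and at 60.1 against 62.3 CPM at the facing ends, while in the other 10 genes at least 1 mouse id of one side reaches into the range of the other.

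No let-7 target taken from the literature passed the test. Of 36 listed genes 26 were measured, 0 were called, 11 had a log2 fold change above 0 and 15 below, and the median was -0.14 beside -0.0046 over all genes. At an unadjusted p under 0.05 there was 1 gene in each direction, Nras above and Hmga2 below, beside 2.21% and 2.36% of all genes.

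Hmga2, an architectural chromatin protein and the classic let-7 target, had 78.1, 156 and 194 CPM on the let-7 side and 140, 204 and 275 on the other. All 7 let-7 values lay below the other side's median, and 3 lay below its lowest value. The means were 142 ± 45.1 CPM (SD, n = 7) and 204 ± 48.9, and the groups ran from 126 in Let7e and 162 in Let7d to 181 in mi699a-5p and 233 in NC. The log2 fold change was -0.53 ± 0.21 (edgeR, unadjusted p = 0.0237, adjusted p = 0.9994), and -0.44 (unadjusted p = 0.0518) without Let7e mouse id 3. It was -0.33 without the Let7e group and -0.34 without the NC group (edgeR, unadjusted p = 0.185 and 0.202).

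Nras, a Ras GTPase and reported let-7 target with a 7mer-m8 match, differed the other way. It had 108, 166 and 265 CPM on the let-7 side and 59.5, 135 and 161 on the other, with 5 of 7 let-7 values above every other value. The log2 fold change was 0.52 ± 0.22 (edgeR, unadjusted p = 0.0278), and 0.41 (unadjusted p = 0.0777) without Let7e mouse id 3. Nras averaged 146 CPM in Let7d, near the 139 of NC, with 207 in Let7e and 116 in mi699a-5p. Without the Let7e group its log2 fold change was 0.22 (edgeR, unadjusted p = 0.441).

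Lin28a, the inhibitor of let-7 maturation whose 2 sites are printed above, had 35.9, 70.5 and 102 CPM against 23.6, 61.2 and 83.9. Trim71, a stem cell ubiquitin ligase and RNA-binding protein with 4 such sites, of which 2 are printed, had 153, 236 and 495 CPM against 210, 342 and 399. The sides overlapped broadly in both, with log2 fold changes of 0.20 ± 0.26 and -0.16 ± 0.26. Single mouse ids moved both values by over 1.5 times: Lin28a was 0.06 without mi699a-5p mouse id 1, 0.08 without Let7d mouse id 1 and 0.31 without Let7e mouse id 1. Trim71 ran from -0.34 without Let7d mouse id 1 to -0.04 without Let7d mouse id 3, and 8 of the 14 mouse ids moved it that far. The 95% interval of the fit to all mouse ids reached ± 0.53 around each, so a log2 change of 1 in either direction lay outside both.

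Among the less abundant targets, Nr6a1, an orphan nuclear receptor with 3 8mer matches, had 3.27 to 43.9 CPM against 9.96 to 50.7 (log2 fold change -0.87 ± 0.53). Without Let7e mouse id 3, which held its highest let-7 value, the fold change was -1.52 (edgeR, unadjusted p = 0.00455). Tgfbr1, a receptor kinase of the TGF-beta pathway, had 5.86 to 15.7 CPM against 4.15 to 29.7, and Ccnd2, a G1 cyclin, 1.72 to 41.2 against 1.48 to 16.7 (log2 fold change 1.07 ± 0.66, and 0.56 without Let7e mouse id 3). Dicer1, which cuts microRNA precursors, had 22.4 to 130 CPM against 46.7 to 77.6, a log2 fold change of 0.03 ± 0.33. The spread within the let-7 side was wider than the other side's in Ccnd2 and Dicer1.

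Genes were then sorted by the best match to the let-7 seed in their annotated 3′ UTR, on the transcript strand only, in exclusive classes: 8mer (CTACCTCA), 7mer-m8 (CTACCTC), 7mer-A1 (TACCTCA), 6mer (TACCTC) or none. An 8mer was held by 286 genes (3.63% of the table), a 7mer-m8 by 517 (6.56%), a 7mer-A1 by 483 (6.12%), a 6mer by 707 (8.97%) and none by 5583 (70.8%). The remaining 310 genes (3.93%, median log2 fold change 0.05) had no annotated 3′ UTR and were not sorted. The median log2 fold changes of the 5 classes were -0.03, -0.02, 0.0047, -0.02 and -0.0036 in that order. Of the 8mer genes 54.5% lay below 0, and of those without a match 50.5%.

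Genes with an 8mer have longer 3′ UTRs (median 2668 bases against 875). In 5 bins of UTR length, bounded at 500, 1000, 2000 and 4000 bases, the medians from the shortest to the longest were -0.13, 0.03, -0.04, -0.05 and -0.01 with an 8mer (14, 24, 67, 95 and 86 genes) and 0.0020, -0.00024, -0.0059, -0.02 and -0.0065 without a match. The 8mer median was thus the lower one in 4 bins and the higher one between 500 and 1000 bases. The 8mer class minus the class without a match was also taken in each mouse id, as the difference of median deviations of log2 CPM. It was -0.17, 0.02 and 0.13 (lowest, median, highest) on the let-7 side and -0.07, -0.02 and 0.15 on the other. The let-7 range covered the other values except the highest, and the highest let-7 value was that of Let7e mouse id 3.

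Within the 8mer class 5 genes had a lower let-7 mean and 2 a higher one at an unadjusted p under 0.05, together 2.45% of the class beside 4.57% over all genes and 4.51% of genes without a match. These few, named after their values were seen except Hmga2 and Ppt2, were Tepsin, Trim6, Tma7, Cbl and Hmga2 below and Gaa and Ppt2 above. Trim6, a ubiquitin ligase of the tripartite motif family, has the most 8mer matches of any gene in the table (5). It had 48.8, 58.6 and 118 CPM against 75.5, 101 and 200, with 4 of 7 let-7 values below every other value (log2 fold change -0.71 ± 0.25). Without the mi699a-5p group its log2 fold change was -0.45 (edgeR, unadjusted p = 0.159). In the same setting Tma7 went from -0.61 to -0.34 and Cbl from -0.60 to -0.20 (edgeR, unadjusted p = 0.144 and 0.501). Over the 17 genes with 2 or more 8mers the median log2 fold change was -0.01, and 9 lay below 0.

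**Figure D3:**
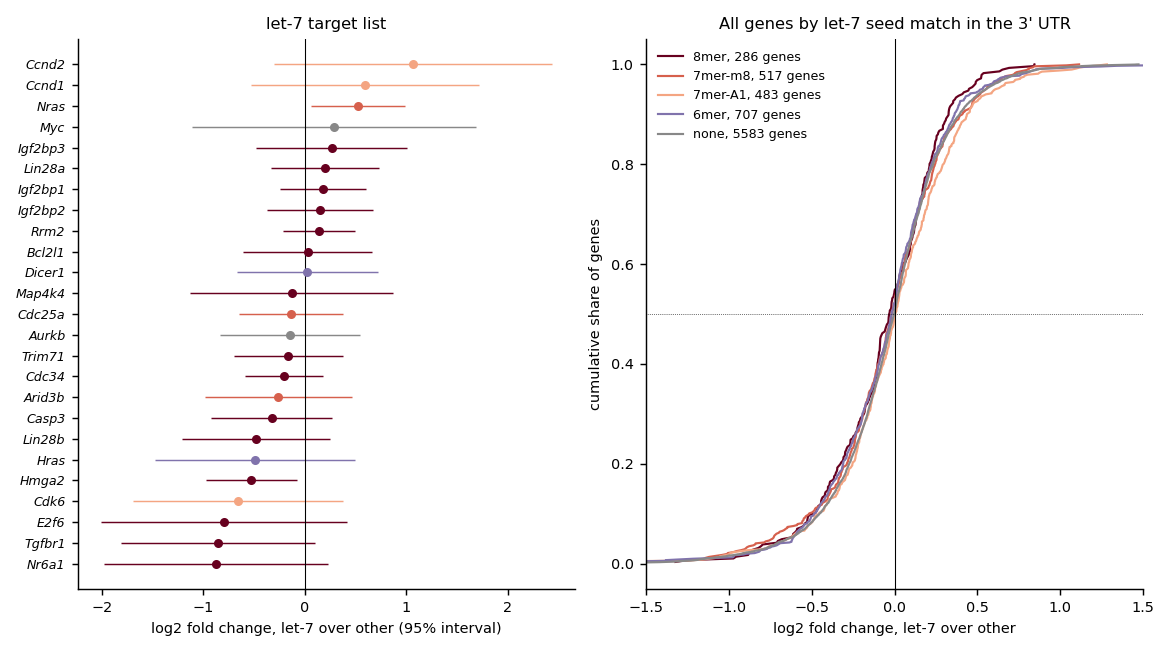
Left, log2 fold change of let-7 over other with its 95% interval for 25 measured let-7 targets, coloured by the best seed match in the 3′ UTR. Right, the cumulative share of genes against log2 fold change for each match class, drawn from -1.5 to 1.5: the curves cross 0.5 at medians from -0.03 (8mer) to 0.0047 (7mer-A1) and lie close together.

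Counts at an unadjusted p under 0.05 in the lists below stand beside 4.57% over all genes. Proteins that make or carry out microRNA silencing were measured in 29 of 31 cases, with 16 above 0 and a median of 0.03. Cnot3, a subunit of the deadenylase complex that silencing recruits, had 33.3 to 113 CPM against 22.1 to 42.9 (log2 fold change 0.76 ± 0.28, and 0.50 without Let7e mouse id 3). Tnrc6a, the Argonaute partner that recruits it, had 12.1 to 49.2 CPM against 41.8 to 68.5 (log2 fold change -0.76 ± 0.29). These 2 differed in opposite directions, each at an unadjusted p under 0.05. Without the Let7e group the log2 fold change was -0.30 for Tnrc6a and 0.45 for Cnot3. Tnrc6a averaged 44.3 CPM in Let7d and 23.3 in Let7e, against 61.2 in NC and 49.8 in mi699a-5p. Pan3, of the other cytoplasmic deadenylase, had 304 to 444 CPM against 254 to 395, and the helicase Mov10 41.8 to 120 against 35.9 to 124.

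Mitochondrial lists gave small medians in both directions. The 7 measured mitochondrially encoded genes of oxidative phosphorylation had a median log2 fold change of -0.13, with 6 below 0 and 1, mt-Co1, at an unadjusted p under 0.05 (log2 fold change -0.41, edgeR, unadjusted p = 0.0462). Without Let7e mouse id 3 it was -0.33 (unadjusted p = 0.102). The gene encodes a catalytic subunit of cytochrome c oxidase and had 2388, 3841 and 7313 CPM against 4693, 5865 and 6298. The highest value of all 14 was on the let-7 side, although 5 of 7 let-7 values lay below every other value. Let7d averaged 3210 CPM and Let7e 4808, against 5625 in NC and 5363 in mi699a-5p. Let7d had the lowest group mean in all 7 genes, whereas Let7e lay below both other groups in mt-Co1 only. For mt-Nd1 the means were 4034.5 CPM in Let7d and 9502.2 in Let7e, against 6932.8 in NC and 7636.1 in mi699a-5p. The pooled median of these genes therefore does not describe both let-7 groups.

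Nuclear genes of complexes II to V had 27 of 35 members below 0 and a median of -0.12, with 1 member, Uqcrh of complex III, at an unadjusted p under 0.05 (57.6 to 143 CPM against 88.3 to 290). Its log2 fold change of -0.62 was -0.33 without mi699a-5p mouse id 1 and -0.14 without the mi699a-5p group. Uqcrh averaged 94.7 CPM in Let7d, 89.5 in Let7e and 101 in NC, with 170 in mi699a-5p. Complex I had 19 of 35 below 0 and a median of -0.02, again with 1 such member, Ndufb2 (10.7 to 28.0 CPM against 18.6 to 44.3). Mitochondrial translation had a median of 0.10. Its 1 member at an unadjusted p under 0.05, Mtfmt, which formylates the initiator transfer RNA, lay the other way, at 3.43 to 14.4 CPM against 7.23 to 28.0.

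Of 32 measured genes of mitochondrial dynamics, import and mitophagy, 20 lay below 0, and 3 reached an unadjusted p under 0.05. Bnip3l, a mitophagy receptor of the outer membrane, had 226, 260 and 321 CPM against 289, 342 and 463 (log2 fold change -0.43 ± 0.14). Pink1, the kinase that marks damaged mitochondria, had 26.5 to 62.0 CPM against 9.27 to 46.8. Its NC mean of 37.2 CPM lay near those of Let7e (38.6) and Let7d (45.1), with mi699a-5p at 14.5, and its log2 fold change of 0.77 was 0.15 without the mi699a-5p group. Fundc1, another mitophagy receptor, had the widest difference of all named genes (log2 fold change -2.11 ± 0.71), but the high values were those of mi699a-5p, at 76.1 CPM, while NC at 10.6 CPM was level with Let7d (11.4) and Let7e (10.96). Without the mi699a-5p group its fold change was 0.06, and without mouse id 2 of that group, which had 190 CPM, it was -1.13.

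In metabolism outside the respiratory chain 0 of 24 genes of pyruvate dehydrogenase and the TCA cycle, 0 of 16 of fatty acid oxidation and 0 of 12 of glycolysis reached an unadjusted p under 0.05, with medians of -0.07, -0.08 and -0.02. The nearest was Hadha, the long-chain subunit of the trifunctional protein of fatty acid oxidation, at 6.37 to 46.5 CPM against 37.4 to 78.7. Antioxidant enzymes had a median of -0.18 over 17 genes. Txn1 (thioredoxin) was lower on the let-7 side, at 10.5 to 44.0 CPM against 26.5 to 102, and the peroxiredoxin Prdx2 higher, at 39.5 to 130 against 39.0 to 95.2, both with overlap. The log2 fold change of Txn1, -0.71, was -0.41 without mi699a-5p mouse id 2. Prdx2 averaged 68.6 CPM in Let7d, below the 75.4 of NC, with 106 in Let7e and 54.4 in mi699a-5p. The log2 fold change of Prdx2, 0.51, was 0.11 without the Let7e group and 0.25 without the mi699a-5p group.

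The p53 response list had the lowest median of any list with 5 or more measured genes. Of its 19 measured genes 16 lay below 0, the median log2 fold change was -0.49, and 3 genes (Cdkn1a, Btg2 and Mdm2) had lower let-7 means at an unadjusted p under 0.05. Cdkn1a, the cyclin-dependent kinase inhibitor p21, had 86.2, 207 and 296 CPM on the let-7 side and 193, 324 and 429 on the other, with a log2 fold change of -0.64 ± 0.24. Let-7 values lay below the other median in all 7 mouse ids, and 3 lay below the lowest other value.

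Mdm2, the ubiquitin ligase that degrades p53 and is itself induced by it, had 44.2, 70.7 and 104 CPM against 65.3, 109 and 135. Btg2, an antiproliferative deadenylase cofactor, had 3.50, 20.2 and 33.7 CPM against 12.6, 32.4 and 102, and its log2 fold change of -1.11 was -0.68 without mi699a-5p mouse id 2. Sesn1, a stress-induced regulator of growth signalling, had 5.40 to 30.9 CPM against 12.1 to 42.3. Both sides overlapped in each, and 0 of the list's genes separated them. The summed level of the list was 1209 to 2070 CPM on the let-7 side and 1653 to 2380 on the other. An earlier result of these data had already shown this list as lower, so its count is no independent support.

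The nuclear transport list had 25 of 38 measured genes above 0, a median of 0.11, and 4 genes at an unadjusted p under 0.05, all with higher let-7 means. Beside Tnpo2 these were the scaffold nucleoporins Nup160, at 107, 132 and 271 CPM against 65.9, 94.9 and 155, and Nup205, at 87.2, 123 and 156 CPM against 67.4, 90.9 and 119, and the import receptor Kpnb1, at 168, 222 and 288 CPM against 106, 156 and 222. At least 2 let-7 values lay above every other value in each, and the log2 fold change of Nup160, 0.56, was 0.37 without Let7d mouse id 3. Kpnb1 averaged 174 CPM in Let7d, below the 193 of NC, with 248 in Let7e and 139 in mi699a-5p. The log2 fold change of Kpnb1, 0.41, was 0.10 without the Let7e group and 0.16 without the mi699a-5p group. The summed level of the list did not separate the sides, at 7807 to 10658 CPM against 7690 to 10600.

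Cell cycle and stress lists had medians near that of all genes. Of 30 genes of G2 and mitosis 0 reached an unadjusted p under 0.05 (median 0.04), with Ccnb1, the mitotic cyclin, at 895 to 1835 CPM against 955 to 1348. DNA replication had a median of 0.07 over 35 genes, and its 1 such member, the helicase subunit Mcm5, had 105 to 163 CPM against 143 to 236. Heat shock proteins (13 genes, median -0.01) and the integrated stress response (11 genes, median -0.12) had 0.

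Maternal transcripts, which are cleared after genome activation, had 11 of 16 measured members above 0, a median of 0.25 and 0 at an unadjusted p under 0.05. Dppa3, the most abundant, had 3319 to 5746 CPM against 4237 to 8224. Of 27 genes of compaction and polarity 18 lay below 0 (median -0.13), with Amot, a Hippo pathway scaffold, at 10.1 to 38.4 CPM against 26.5 to 91.2 and the tight junction claudin Cldn6 at 6.999 to 43.4 against 18.9 to 86.2, both at an unadjusted p under 0.05. The trophectoderm list had 0 (median 0.16). Arg2, an arginase on the 2-cell list, had 0.573 to 15.9 CPM against 5.35 to 118. Its log2 fold change of -1.79 was -0.42 without mi699a-5p mouse id 2.

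**Figure D4:**
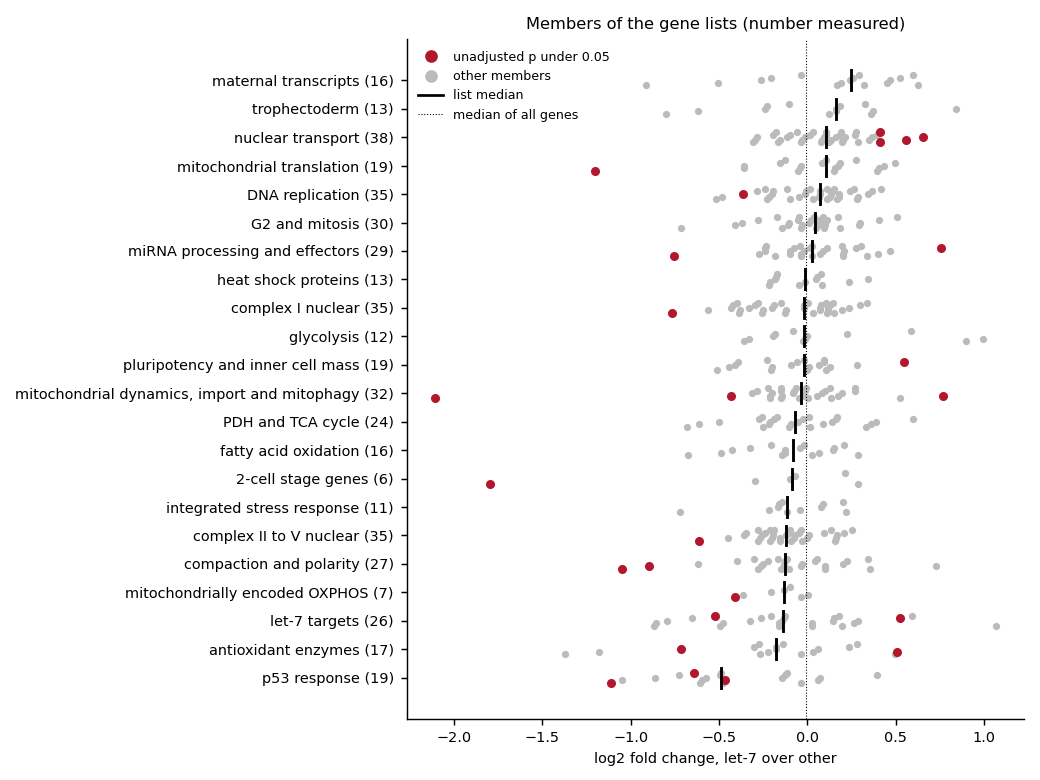
Log2 fold change of let-7 over other for every measured member of 22 gene lists, 1 point per gene, red where the unadjusted p is under 0.05, with the list median as a black bar and the median of all genes as a dotted line. Medians run from -0.49 for the p53 response to 0.25 for maternal transcripts, and every list holds members on both sides of 0.

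Because the other side holds a further microRNA, genes that set let-7 apart from NC could be read in a group injected with other material. Xpo1, the export receptor of proteins with leucine-rich signals, averaged 986 CPM in Let7d cells, 937 in Let7e and 1046 in mi699a-5p, against 545 in NC. The long noncoding RNA Tug1 averaged 505, 374 and 455 CPM in the same order, against 206 in NC, and Gfm1, a mitochondrial elongation factor, 144, 127 and 134 against 58.8. In these 3 genes mi699a-5p stood with the let-7 groups and NC alone was low. They were named because earlier results of these data had singled them out against NC. Their low NC values, and differences from NC, are therefore no independent support.

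Against the joined other side these genes had log2 fold changes of 0.20 ± 0.20 (Xpo1), 0.30 ± 0.25 (Tug1) and 0.41 ± 0.27 (Gfm1). Single mouse ids moved them by over 1.5 times: Xpo1 to 0.10 and 0.13 without NC mouse ids 1 and 2 and to 0.36 without mi699a-5p mouse id 3, Tug1 to 0.18 without NC mouse id 2 and 0.54 without mi699a-5p mouse id 3, and Gfm1 to 0.26 without NC mouse id 1. With the NC group left out, the fold changes were -0.11, -0.07 and 0.02. In the fit of all 4 groups mi699a-5p over NC had a log2 fold change of 0.94 ± 0.21 for Xpo1, 1.14 ± 0.27 for Tug1 and 1.19 ± 0.31 for Gfm1 (edgeR, adjusted p = 0.503, 0.673 and 0.822), and 0 genes were called for mi699a-5p over NC (434 at an unadjusted p under 0.05) or for Let7e over Let7d (425). The gene ENSMUSG00000118642.1, which has no symbol in GENCODE M21, had the mirror pattern, with 197 CPM in NC, 48.8 in mi699a-5p, 31.3 in Let7d and 86.2 in Let7e.

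CT010467.1, a ribosomal RNA gene and the most abundant of these, had 26119, 48492 and 113148 CPM on the let-7 side and 67588, 83950 and 148695 on the other, with 4 of 7 let-7 values below every other value. Its log2 fold change was -0.72 ± 0.26 (edgeR, unadjusted p = 0.0135), and with ribosomal and mitochondrial genes left out before scaling 365 genes had an unadjusted p under 0.05, beside 360 with them.

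**Figure D5:**
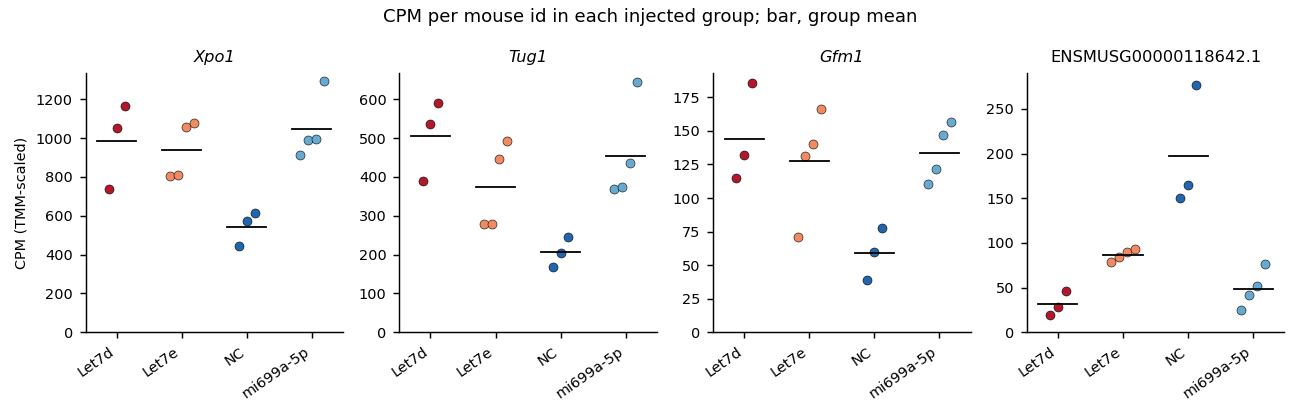
CPM per mouse id (linear axes from 0, TMM-scaled) of 4 genes in each injected group, with the group mean as a bar. For Xpo1, Tug1 and Gfm1 the mean of mi699a-5p lies between 134 and 1046 CPM, beside the let-7 groups, and NC lies lowest; for ENSMUSG00000118642.1 NC lies highest at 197 CPM.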

How the data were processed

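The authors deposited whole-number read counts per gene and cell from Smart-seq2 libraries of single blastomeres. The submitters' processing notes list STAR and the build GRCm38.p6; the version of STAR and the counting program are not given in the sources used here. Smart-seq2 adds no molecular identifiers, so counts include amplification copies. The table of RPKM values was not used.

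Of 92 labelled cells 82 had a column, and 0 columns were left unmapped. A pair of columns from Let7d mouse id 2 differed by about as much as sampling noise gives (a chi-square of 1.05 per gene, with 28.7 for the runner-up among 3321 pairs). The reads of this pair were added and counted as 1 cell, which left 81. GENCODE M21 gave a symbol to 7884 identifiers and none to 2.

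Counts were summed per mouse id and tested in edgeR 4.0.16 (R 4.3.3) with TMM scaling, filterByExpr (0 genes removed) and the quasi-likelihood F test for a 2-level side factor, with 12 residual degrees of freedom, two-sided, with Benjamini-Hochberg adjustment at 0.05. The error of a log2 fold change is its standard error, and CPM values are TMM-scaled. Alternatives were DESeq2 1.42.0, limma-voom (limma 3.58.1), other scalings and filters, a 4-group fit, covariates, thinned counts, and groups or mouse ids left out. The analysis script was tested on simulated data. Library measures were compared by exact permutation. Seed matches were counted in the longest annotated 3′ UTR of each gene, from sequences read by script.

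Named genes are the 12 with the smallest p in each direction, genes whose sides do not overlap at a mean of at least 20 CPM, up to 4 members per gene list with the smallest p, known let-7 targets, and genes singled out earlier against NC; 1 such target is not reported here. The contrast, members and lists were chosen with earlier results of these data known. Mouse id numbers were not used to pair samples in the main test, and the labels do not say what they stand for. Mouse ids with the same number in different groups had a mean correlation of 0.00587 over 19 pairs, from -0.126 to 0.128. With different numbers the mean was -0.0021 over 54 pairs, from -0.177 to 0.182.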

Additional observations from a re-analysis of the deposited data

Results flagged for a closer look

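In a side of 7, the highest or lowest mouse id was set apart where its gap to the nearest value exceeded 0.568 of the side's range. For genes, gap and range were taken on log2 CPM after adding 1, not on the CPM printed here. Of the sides tested over genes and library measures named in the text, 12 were set apart (7.32% of 164), where chance gives about 1 in 20. Let7e mouse id 3 was lowest of the let-7 side in 4930522L14Rik (9.47 CPM), Osbpl11 (30.5 CPM) and Hadha (6.37 CPM). Osbpl11 is among the 3 genes whose let-7 values all lie below the other side. Let7e mouse id 1 was highest in Dhps (90.3 CPM) and Tma7 (149 CPM), and Let7e mouse id 4 was lowest in Slc25a26 (1.93 CPM). In Let7d, mouse id 1 was highest in depth (4071285 reads per cell), mouse id 2 lowest in Prdx2 (39.5 CPM) and mouse id 3 highest in Nup160 (271 CPM). On the other side, mi699a-5p mouse id 1 was lowest in Nras (59.5 CPM) and Lin28a (23.6 CPM), and mi699a-5p mouse id 2 was highest in Arg2 (118 CPM).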

How the results depend on the processing

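The count of called genes was 0 in both directions in all 33 alternatives, including the replicate block (0 higher and 0 lower) and each mouse id left out (0 to 0). The sides' 174 and 186 genes at an unadjusted p under 0.05 became 166 and 179 with the replicate block. That split was 331 higher and 160 lower with equal weight per cell, 151 and 258 without Let7e, and 191 and 92 without mi699a-5p. Genes without overlap and lower in let-7 numbered 1 with plain library totals.

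With 1 mouse id left out, the difference in detected genes per cell ran from -137 to 0.815 (the last without mi699a-5p mouse id 4), in ribosomal share from -4.78 to -3.06 points and in the share of the 50 most abundant genes from -4.64 to -2.80 points, both lowest without Let7e mouse id 1.

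Of 59 named genes at an unadjusted p under 0.05, the log2 fold change moved by over 1.5 times in 18 without mi699a-5p, 12 without Let7e, 6 without Let7d and 3 without NC.

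Of 77 named genes 6 changed sign somewhere. Without NC, the log2 fold change was 0.37 for ENSMUSG00000118642.1, -0.067 for Tug1 and -0.11 for Xpo1. Fundc1 became 0.064 without mi699a-5p, and Trim71 0.18 without Let7e. Dicer1 gave -0.15 with limma-voom, -0.15 with the replicate block, -0.067 with equal weight per cell, -0.52 without Let7d, -0.0033 without mi699a-5p, and -0.24 to 0.17 over single mouse ids left out, with a changed sign without Let7d mouse id 1 or 2, Let7e 1 or NC 3. The cause was not tested. The alternatives that thin every cell to the same reads and leave out cells with both Xist and Y-linked reads were chosen after seeing the data.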

Other observations

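Sterol genes were looked at after Stard4 and Msmo1 had appeared among the lower-ranked genes, so the list was chosen on these samples and supports nothing by its count. Of 27 genes of cholesterol synthesis, uptake and their regulation 20 were measured, 16 lay below 0, and the median log2 fold change was -0.33 beside -0.0046 over all genes. Of these 0 were called, and 3 had lower let-7 means at an unadjusted p under 0.05: Stard4, Msmo1 and Fdft1, which makes squalene. Fdft1 had 122, 187 and 236 CPM on the let-7 side against 173, 246 and 362 (log2 fold change -0.46 ± 0.17). Dhcr7, which catalyses a last step of synthesis, lay the other way, at a mean of 80.1 against 54.2 CPM. The summed level of the list overlapped, at 682 to 1100 CPM against 908 to 1421.

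The COP9 signalosome, chosen after Cops6 had appeared, had all 10 subunits measured, with 6 above 0, a median of 0.02, 2 subunits with a higher let-7 mean at an unadjusted p under 0.05 and 1 with a lower one. The splicing factor 3 complexes that hold Sf3a1, chosen in the same way, had 5 of 9 measured members above 0 and a median of 0.02.

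In mi699a-5p mouse id 2 lay the highest value of all 14 mouse ids for Akap10 (81.6 CPM), Fundc1 (190 CPM), Txn1 (102 CPM), Btg2 (102 CPM) and Arg2 (118 CPM), which is a description of 1 library with 7 cells.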
